A study of Mus musculus with 12 samples.

Results

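Leukocyte integrins and the selectin ligand PSGL-1 were followed by RNA sequencing of the brain's covering membranes, the meninges, in mice with and without chemically induced colitis. The 7 genes were chosen by symbol from a list: the integrin subunit genes Itgb2, Itgam, Itgal, Itgax, Itga4 and Itgb7, and Selplg, which encodes P-selectin glycoprotein ligand 1. All 7 had a row among the 47747 symbols of the count table, and all 7 were among the 18593 genes that passed the filter on low counts. DSS mice were C57BL/6 animals given 2% dextran sulfate sodium, a polymer that injures the colon epithelium, in drinking water for 5 days and then normal water. Control mice were C57BL/6 animals labelled as controls, with no agent named for them. There were 6 mice and 6 libraries in each group, and the mice were killed after 6 days, with the first day of that count not stated. Age and sex were not used here.

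Integrins are paired receptors of an alpha and a beta chain. On leukocytes, the beta 2 chain CD18 (Itgb2) pairs with alpha L (Itgal) to form LFA-1, with alpha M (Itgam) to form Mac-1, also called complement receptor 3, and with alpha X (Itgax) to form complement receptor 4. The alpha 4 chain (Itga4) pairs with beta 1 to form VLA-4 or with beta 7 (Itgb7) to form the gut-homing integrin that binds MAdCAM-1. Selectins and PSGL-1 slow leukocytes on the vessel wall, and integrins then hold them there and let them cross. Integrins on blood leukocytes are kept inactive until chemokine receptors signal to kindlin-3 and talin inside the cell.

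Total RNA libraries held 9312788 to 41869997 counts each, and counts of the 7 genes lay between 42 and 1556 per library, the lowest being Itgal in Control replicate 2. Ribosomal RNA features took 61.5% of the counts in Control replicate 2, against 1.33% to 4.75% in DSS libraries and 1.17% to 10.6% in the other Control libraries. Skeletal muscle markers summed to 159 CPM (library-scaled counts) in DSS replicate 2, whereas they gave 2.30 to 5.17 CPM in the remaining DSS libraries and 4.04 to 10.0 CPM in Control libraries. Summed choroid plexus markers varied widely within both groups. They gave 276 CPM in DSS replicate 4 and 701.5 CPM in DSS replicate 3, against 3556 to 7046 CPM in the remaining DSS libraries. In Control libraries they gave 228 CPM in replicate 2 and 207 CPM in replicate 5, against 3289 to 6974 CPM in the rest. The labels give colon as the source while titles and extraction name meninges. Summed colon epithelium markers lay between 5.14 and 12.7 CPM in DSS libraries and between 4.80 and 7.98 CPM in Control libraries, with Cdx2 at 0 counts throughout, while 8 fibroblast genes summed to 9392 to 18734 CPM in DSS libraries and 10179 to 16268 CPM in Control libraries.

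By the edgeR quasi-likelihood test with Benjamini-Hochberg adjustment over all 18593 genes, 5 of the 7 genes rose in DSS mice and none fell (background: 4.94% of tested genes called, 3.68% higher and 1.26% lower in DSS mice). These were Itgb2, Itgam, Itgal, Itga4 and Selplg, with fold changes between 1.70 and 2.06. The median log2 fold change of the 7 genes was 0.87, against -0.02 over all tested genes. The remaining members, Itgax and Itgb7, had log2 fold changes of 0.56 and 0.36 and did not pass the adjusted threshold of 0.05. In the 5 risen genes every DSS library lay above every Control library, a separation that 2.23% of all tested genes showed. Because these are bulk samples, more cells of a type and more RNA per cell cannot be told apart.

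**Figure D1:**
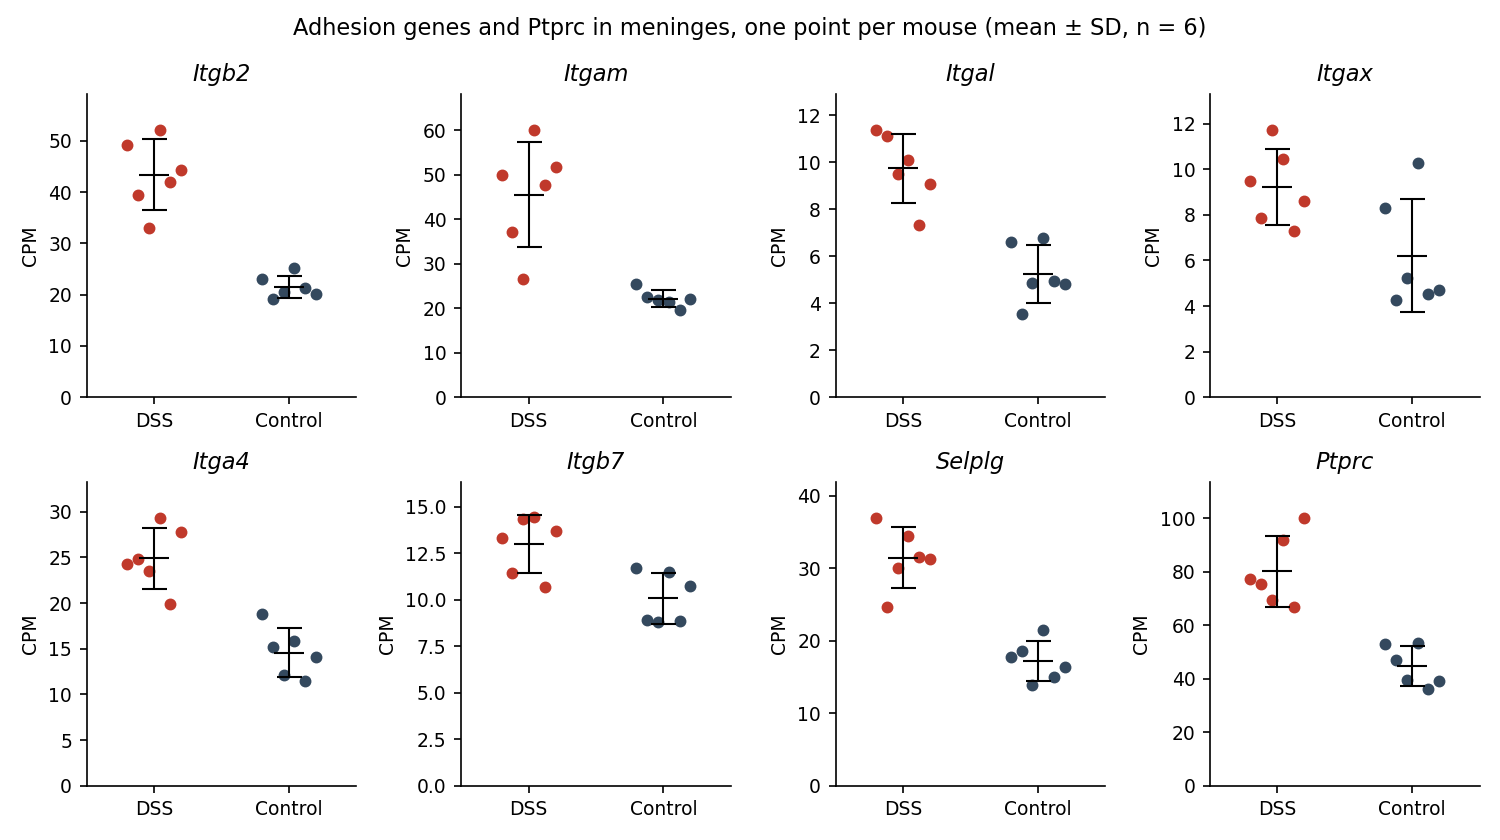
CPM of the 7 genes and of the pan-leukocyte gene Ptprc in each mouse (points), with the mean and SD of each group of 6 (bars), DSS at the left and Control at the right of each panel. The groups do not overlap for Itgb2, Itgam, Itgal, Itga4, Selplg and Ptprc, and overlap for Itgax and Itgb7.

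The 3 CD11 genes lie on chromosome 7 of GRCm38, all on the plus strand. Itgal runs from 127296260 to 127335138, Itgam from 128062640 to 128118491 and Itgax from 128129547 to 128150657, so that 11056 bases separate Itgam from Itgax and 727502 bases separate Itgal from Itgam. Within 250 kb of Itgam, 19 other genes were tested and none was called, and their median log2 fold change was -0.05. Within 250 kb of Itgax 17 were tested, and the single call was Itgam. Within 250 kb of Itgal 28 were tested and 1 rose, AI467606, named after its values were seen. Itga4 lies on chromosome 2 from 79255426 to 79333123 (plus strand), Itgb7 on chromosome 15 from 102215995 to 102231944 (minus strand) and Selplg on chromosome 5 from 113818536 to 113832644 (minus strand). Itgam shares exon bases with the annotated gene Gm49368, which has no row under that symbol in the count table.

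Promoter windows from 250 bases before to 50 bases after the start were found for 4 of the 7 genes in RefSeq's tables on GRCm38.p6. No window was found for Itgb2, Itgal or Selplg, which all rose. The 4 windows found set Itgam and Itga4, which rose, beside Itgax and Itgb7, which were not called. Capitals mark GAGGAA on either strand (TTCCTC where it lies on the other strand), a purine-rich core bound by the myeloid factor PU.1. The windows are chr7:128062390-128062689 on the plus strand for Itgam, chr7:128129300-128129599 on the plus strand for Itgax, chr2:79255176-79255475 on the plus strand for Itga4 and chr15:102231886-102232185 on the minus strand for Itgb7, each written 5′ to 3′ along the gene.
Itgam: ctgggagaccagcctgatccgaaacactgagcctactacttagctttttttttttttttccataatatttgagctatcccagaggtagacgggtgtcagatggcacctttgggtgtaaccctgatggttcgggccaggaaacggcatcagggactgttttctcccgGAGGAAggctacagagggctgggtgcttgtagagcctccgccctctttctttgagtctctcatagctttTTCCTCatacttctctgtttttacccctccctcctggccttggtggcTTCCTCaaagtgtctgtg
Itgax: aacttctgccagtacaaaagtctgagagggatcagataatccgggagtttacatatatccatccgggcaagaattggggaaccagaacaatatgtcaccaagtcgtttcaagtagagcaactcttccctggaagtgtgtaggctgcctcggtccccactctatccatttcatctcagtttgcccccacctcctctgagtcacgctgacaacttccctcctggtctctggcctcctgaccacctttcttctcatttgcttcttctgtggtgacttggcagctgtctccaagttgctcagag
Itga4: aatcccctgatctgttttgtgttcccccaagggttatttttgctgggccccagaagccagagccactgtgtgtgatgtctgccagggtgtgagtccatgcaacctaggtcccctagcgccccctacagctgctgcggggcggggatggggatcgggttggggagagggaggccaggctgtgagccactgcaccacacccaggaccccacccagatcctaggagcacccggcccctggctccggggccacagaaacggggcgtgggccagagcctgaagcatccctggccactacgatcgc
Itgb7: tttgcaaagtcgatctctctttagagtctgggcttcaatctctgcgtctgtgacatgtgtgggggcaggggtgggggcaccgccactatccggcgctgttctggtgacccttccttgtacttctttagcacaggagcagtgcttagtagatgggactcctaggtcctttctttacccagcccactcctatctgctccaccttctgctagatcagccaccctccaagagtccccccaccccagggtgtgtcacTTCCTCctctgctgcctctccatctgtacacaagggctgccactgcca
The Itgam window held 3 GAGGAA matches and the Itgb7 window 1, and 28.3% of the 32851 promoter windows of this length held at least 1 on either strand. The Itgax and Itga4 windows held none. TGNGGT, the core bound by RUNX factors, was found 2 times in Itga4 and 1 time each in Itgax and Itgb7, and 45.8% of all windows held it. The GC box GGGCGG was found 1 time each in Itgam and Itga4 and in 35.7% of all windows. These matches describe letters only.

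Itgb2, the common beta chain of the 3 CD11 integrins, lay between 33.1 and 52.2 CPM with a median of 43.2 CPM in DSS mice, and between 19.2 and 25.1 CPM with a median of 20.9 CPM in Control mice. The lowest DSS mouse, replicate 3, was still above the highest Control mouse. The mean was 43.4 ± 6.88 CPM in DSS mice and 21.5 ± 2.17 CPM in Control mice (SD, n = 6 each), a 2.01-fold difference (log2 fold change 1.01 ± 0.11 SE, edgeR adjusted p = 0.000199). On GRCm38 the gene lies on chromosome 10 from 77530252 to 77565708, with no other annotated gene over it in GENCODE M21. Leaving out any 1 mouse kept its log2 fold change between 0.95 and 1.08.

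Itgam, the alpha chain of Mac-1 on neutrophils, monocytes and macrophages, lay between 26.6 and 60.1 CPM with a median of 48.9 CPM in DSS mice, and between 19.6 and 25.4 CPM with a median of 21.96 CPM in Control mice. Its spread was wide in DSS mice (mean 45.6 ± 11.9 CPM) and narrow in Control mice (22.1 ± 1.89 CPM, SD, n = 6 each). DSS replicate 3, at 26.6 CPM, lay close to the highest Control mouse, whereas the next lowest DSS mouse was at 37.2 CPM. The difference was 2.06-fold (log2 fold change 1.04 ± 0.16 SE, edgeR adjusted p = 0.00166).

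Itgal, the alpha chain of LFA-1, lay between 7.32 and 11.4 CPM with a median of 9.79 CPM in DSS mice, and between 3.52 and 6.77 CPM with a median of 4.90 CPM in Control mice. The groups did not overlap, but the lowest DSS mouse, replicate 5, was within 1 CPM of the highest Control mouse. Itgal rose 1.83-fold (log2 fold change 0.87 ± 0.16 SE, edgeR adjusted p = 0.00514). Unlike Itgam, it was not lowest in DSS replicate 3, where it stood at 9.49 CPM.

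Itgax, the CD11c chain carried by dendritic cells and some macrophages, lay between 7.28 and 11.7 CPM with a median of 9.05 CPM in DSS mice, and between 4.28 and 10.3 CPM with a median of 4.96 CPM in Control mice. Only 2 of 6 DSS mice lay above every Control mouse, because Control replicates 1 and 4 were at 8.32 and 10.3 CPM while the other 4 Control mice lay between 4.28 and 5.21 CPM. The log2 fold change was 0.56 ± 0.22 SE (edgeR adjusted p = 0.165). Without Control replicate 4, the highest Control mouse, the log2 fold change was 0.76 and the adjusted p 0.0372 by the same edgeR test. This was the only 1 of 19 alternative settings in which Itgax was called.

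Itga4, which pairs with beta 1 or beta 7, lay between 19.9 and 29.4 CPM with a median of 24.5 CPM in DSS mice, and between 11.5 and 18.8 CPM with a median of 14.6 CPM in Control mice. The lowest DSS mouse was about 1 CPM above the highest Control mouse. Itga4 rose 1.70-fold (log2 fold change 0.77 ± 0.12 SE, edgeR adjusted p = 0.00260). Its exons share bases with Cerkl on the other strand, and the strand setting of the counting is not given in the sources used here. Itga4 had 338 to 836 counts in DSS libraries and 135 to 871 counts in Control libraries. Cerkl had 96 to 201 counts in DSS libraries and 44 to 192 counts in Control libraries and was not called (log2 fold change 0.36, edgeR adjusted p = 0.289).

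Itgb7, the beta chain of the gut-homing alpha 4 beta 7 integrin and of the epithelium-binding alpha E beta 7 integrin, lay between 10.7 and 14.5 CPM with a median of 13.5 CPM in DSS mice, and between 8.81 and 11.7 CPM with a median of 9.81 CPM in Control mice. In 4 of 6 DSS mice the value was above every Control mouse. The log2 fold change was 0.36 ± 0.11 SE (edgeR adjusted p = 0.0701). It passed the threshold without DSS replicate 2 or DSS replicate 5 (log2 fold change 0.40 and 0.41, edgeR adjusted p = 0.0419 and 0.0434), and by the DESeq2 Wald test (adjusted p = 0.029) and limma-voom (adjusted p = 0.0496).

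Selplg, whose product is the main ligand of P-selectin on leukocytes and also binds E-selectin, lay between 24.7 and 36.9 CPM with a median of 31.4 CPM in DSS mice, and between 13.8 and 21.5 CPM with a median of 17.0 CPM in Control mice. DSS replicate 2 was the lowest DSS mouse and was above all Control mice. Selplg rose 1.83-fold (log2 fold change 0.88 ± 0.11 SE, edgeR adjusted p = 0.000638).

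Levels of different genes were compared per kilobase of exon, as CPM divided by the length of the union of a gene's annotated exons. In DSS mice the order was Itgb2 (14.2 ± 2.25 CPM per kilobase), Itgam (9.07 ± 2.36), Selplg (7.37 ± 0.977), Itgb7 (4.69 ± 0.564), Itgax (1.92 ± 0.347), Itga4 (1.78 ± 0.240) and Itgal (1.48 ± 0.225; SD, n = 6). In Control mice the order was the same, with 7.06 ± 0.711 for Itgb2, 4.41 ± 0.376 for Itgam, 4.02 ± 0.642 for Selplg, 3.64 ± 0.4997 for Itgb7, 1.29 ± 0.516 for Itgax, 1.04 ± 0.190 for Itga4 and 0.800 ± 0.187 for Itgal (CPM per kilobase, SD, n = 6). The ranges of the neighbours Itgam and Selplg overlapped in both groups, as did those of Itgax and Itga4, and of Itga4 and Itgal. Those of Itgb2 and Itgam overlapped in DSS mice, and those of Selplg and Itgb7 in Control mice. Compared within each mouse, Itgb2 lay above Itgam and Itga4 above Itgal in every mouse. The order of the other overlapping pairs differed between mice. Places of genes with long or alternative untranslated exons depended on the length used. With the longest protein-coding transcript in place of the union, a setting chosen after the values were seen, Selplg stood at 17.0 CPM per kilobase in DSS mice and 9.25 in Control mice, and led the order in both. Itga4 (2.55) then stood above Itgax (2.28) in DSS mice but below it in Control mice (1.49 against 1.54), so the order was no longer the same in both groups.

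The 4 alpha chains that pair with beta 2 summed to about as much as beta 2 itself. Their summed level (Itgam, Itgal, Itgax and Itgad) was 12.6 ± 2.30 CPM per kilobase in DSS mice and 6.58 ± 0.869 in Control mice (SD, n = 6 each). Divided by Itgb2 of the same mouse, the sum was 0.882 ± 0.0409 in DSS mice and 0.932 ± 0.0769 in Control mice, with overlapping ranges of 0.834 to 0.936 in DSS mice and 0.806 to 1.04 in Control mice. With the longest transcript as the length these means were 0.955 in DSS mice and 1.01 in Control mice. Itgam made up 71.2 ± 7.83% of the alpha sum in DSS mice and 67.5 ± 6.00% in Control mice. Itgad, a CD11 chain of tissue macrophages, passed no filter and made up 0.387% to 1.70% of the sum in DSS mice and 0.316% to 2.75% in Control mice.

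**Figure D2:**
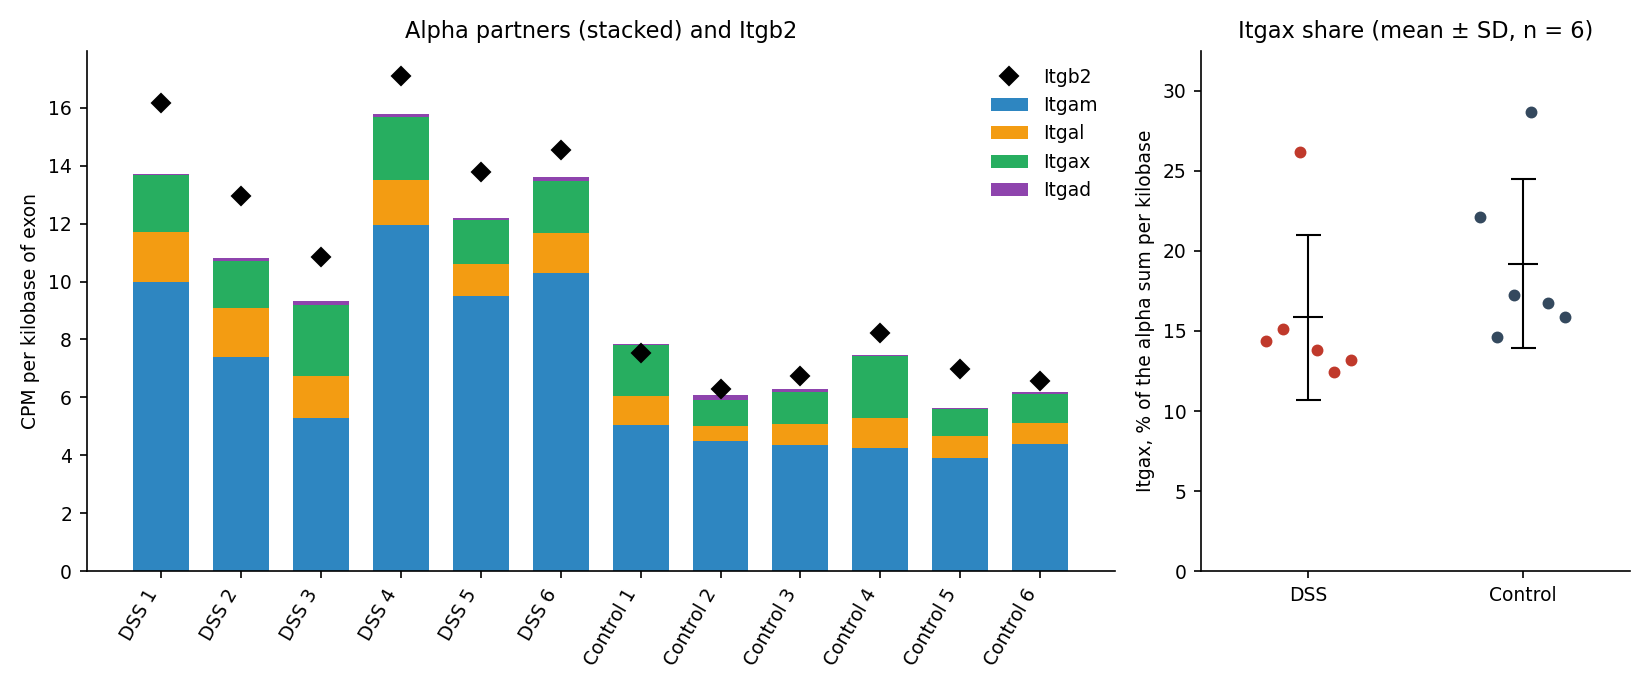
Left, stacked CPM per kilobase of the alpha chain genes Itgam, Itgal, Itgax and Itgad in each mouse with Itgb2 as diamonds. Right, the share of Itgax in the alpha sum per mouse with mean and SD of 6. Itgam is the tallest block in all 12 mice, and DSS replicate 3 (26.1%) and Control replicate 4 (28.6%) had the highest Itgax shares of their groups.

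In DSS replicate 3 the make-up of the CD11 genes stood apart from the other DSS mice. Itgam made up 56.7% of its alpha sum, while its share was 68.5% to 77.9% in the remaining 5, and Itgax made up 26.1%, against 12.4% to 15.2%. Of the Control mice, replicate 4 had shares close to these, with 57.0% Itgam and 28.6% Itgax. DSS replicate 3 also had the lowest summed neutrophil markers of the DSS mice, at 263 CPM against 1073 to 1408 CPM in the other 5. The part of neutrophils in this make-up was not tested.

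Whether 2 genes moved by different amounts was tested on the log2 ratio of their CPM in each mouse, by an exact two-sided permutation test over every way of dividing 12 mice into 2 groups of 6 and adjusted over 17 ratios. The smallest p this design can give is 0.00216. Of the 17 ratios 4 passed: Itgb7 over Itgb2 and over Ptprc, and Itga4 over Itgb7 and over Itgb1. Itgb7 over Itgb2 averaged -1.73 ± 0.27 in DSS mice and -1.10 ± 0.14 in Control mice (log2, SD, n = 6 each), a difference of -0.63 with a 95% interval of -0.88 to -0.35 (exact permutation test, p = 0.00649, adjusted p = 0.0276). The ratio was below every Control mouse in 5 of 6 DSS mice, the exception being replicate 3, and its adjusted p was 0.0552 in 9 of the 12 settings that leave out 1 mouse.

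Itga4 and Itgb7, the chains of 1 heterodimer, also moved apart. Itga4 over Itgb7 averaged 0.93 ± 0.14 in DSS mice and 0.52 ± 0.16 in Control mice (log2, SD, n = 6 each), a difference of 0.41 with an interval of 0.22 to 0.62 (exact permutation test, adjusted p = 0.0245), higher than every Control mouse in 5 of 6 DSS mice. Itga4 over Itgb1, its other partner, averaged -3.34 ± 0.22 in DSS mice and -4.15 ± 0.21 in Control mice, a difference of 0.82 with an interval of 0.53 to 1.08 (exact permutation test, adjusted p = 0.0245) and no overlap of the groups. Itgb1, the beta 1 chain of nearly all cells, averaged 252 ± 24.6 CPM in DSS mice and 258 ± 12.7 CPM in Control mice and was not called (log2 fold change -0.03 ± 0.08 SE, edgeR adjusted p = 0.882). The difference of Itga4 over Itgb1 was therefore close to the log2 fold change of Itga4 alone, 0.77. Itga4 over Itgb2 differed by -0.22 with an interval of -0.53 to 0.09 and did not pass (exact permutation test, adjusted p = 0.386).

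Within the beta 2 group no ratio passed. Itgam over Itgb2 differed by -0.00 between DSS and Control mice, with a 95% interval of -0.25 to 0.25 (exact permutation test, adjusted p = 0.976). Itgal over Itgb2 differed by -0.10 with an interval of -0.44 to 0.25 (adjusted p = 0.660 by the exact permutation test), and Itgax over Itgb2 by -0.37 with an interval of -0.83 to 0.15 (adjusted p = 0.386 by the same exact test). Without DSS replicate 3 the difference of Itgax over Itgb2 was -0.52 (exact permutation test, adjusted p = 0.0147), and that of Itgam over Itgax 0.58 (adjusted p = 0.0245, exact permutation test) in place of 0.37. Selplg over Itgb2 differed by -0.12 with an interval of -0.37 to 0.12.

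The members were also set against Ptprc, the gene of the pan-leukocyte surface protein CD45, and 1 of the 7 ratios passed. Ptprc averaged 80.1 ± 13.1 CPM in DSS mice and 44.7 ± 7.46 CPM in Control mice (SD, n = 6 each) and rose 1.79-fold (edgeR adjusted p = 0.00153). Itgb7 over Ptprc was lower in DSS mice by a log2 difference of -0.48, with an interval of -0.72 to -0.23 (exact permutation test, adjusted p = 0.0245). For the other 6 genes the differences lay between -0.21 for Itgax and 0.16 for Itgb2, and none passed. Their 95% intervals ran from -0.20 to 0.08 for Itga4, -0.10 to 0.42 for Itgb2, -0.25 to 0.31 for Selplg, -0.20 to 0.50 for Itgam, -0.33 to 0.44 for Itgal and -0.65 to 0.22 for Itgax, so these data do not show that the 6 genes moved by the same amount as Ptprc.

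**Figure D3:**
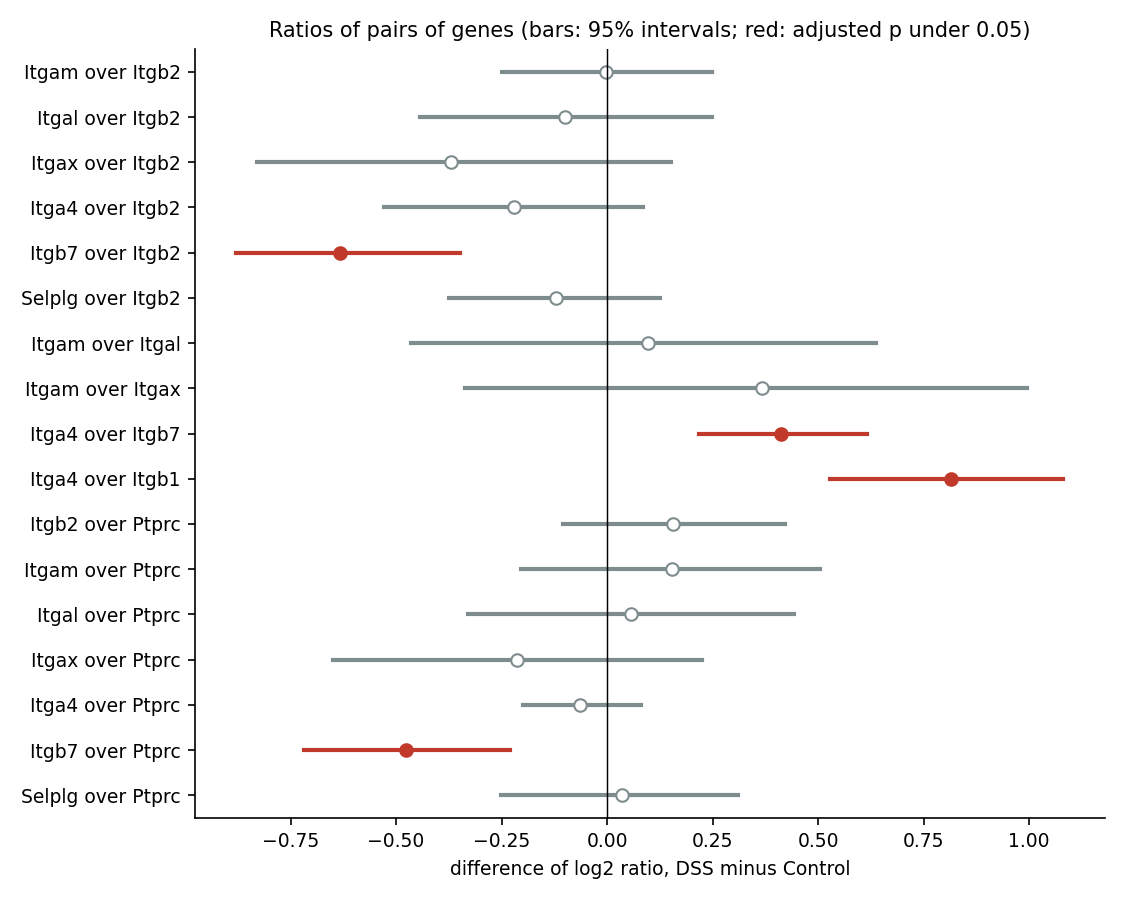
Difference between DSS and Control mice in the log2 ratio of each of 17 gene pairs (circles) with 95% intervals from the exact permutation test (bars, 6 mice per group). Red marks an adjusted p under 0.05: Itgb7 over Itgb2 and over Ptprc lie below 0, and Itga4 over Itgb7 and over Itgb1 lie above it.

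Among the 21 other integrin subunit genes, 20 were tested, 2 rose and 2 fell, with a median log2 fold change of -0.02. Itgb2l, an Itgb2-like chain expressed in mouse neutrophils, averaged 8.25 ± 3.20 CPM in DSS mice and 1.02 ± 0.510 CPM in Control mice (SD, n = 6 each) and rose 8.09-fold (log2 fold change 3.02 ± 0.36 SE, edgeR adjusted p = 0.000346). It was lowest among DSS mice in replicate 3, at 2.55 CPM. Itga9, whose product also binds VCAM-1, rose 1.27-fold, while Itgb3, the beta chain of the platelet and osteoclast integrins, fell by 0.68 and Itga2, a collagen receptor chain, fell by 0.35 on the log2 scale (edgeR adjusted p = 0.0316, 0.0394 and 0.0397). Among single mice left out in turn, Itgb3 kept its call in 3 of 12, Itga9 in 7 and Itga2 in 1. Over all 19 alternative settings they were called in 9, 12 and 5. The broadly expressed chains Itgb1, Itgb5, Itgav, Itga5 and Itga6 were not called, and neither was Itgae, the alpha partner of beta 7, at 1.80 ± 0.536 CPM in DSS mice and 1.70 ± 0.453 CPM in Control mice. Reads of Itgb2, Itgb2l and the CD11 paralogs are uncertain where they match more than 1 gene, since the treatment of such reads is not given in the sources used here.

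The endothelial selectin genes Selp and Sele were not called, at 0.87 ± 0.27 SE and 0.98 ± 0.49 SE on the log2 scale (edgeR adjusted p = 0.0818 and 0.297). Selp, which encodes the main partner of PSGL-1, averaged 12.4 ± 5.82 CPM in DSS mice and 6.82 ± 2.10 CPM in Control mice, with DSS replicates 4 and 6 highest at 22.9 and 15.5 CPM. It passed without DSS replicate 2 (log2 fold change 0.97, edgeR adjusted p = 0.0483). Over all 19 alternative settings Selp was called in 3. Of 10 genes that make the sugars and sulfates selectins need on PSGL-1, none was called by edgeR, at a median log2 fold change of 0.04. The leukocyte fucosyltransferase gene Fut7 averaged 0.656 ± 0.215 CPM in DSS mice and 0.325 ± 0.135 CPM in Control mice (log2 fold change 0.93 ± 0.32 SE, edgeR adjusted p = 0.119). Of these 10 genes 3 had an unadjusted edgeR p under 0.05, against 3525 of all 18593 tested genes. DESeq2 called 1 of the 10 and limma-voom 0, and edgeR called 2 without DSS replicate 2.

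Of 16 genes that switch integrins on from inside the cell 5 rose and none fell, with a median log2 fold change of 0.21. Fermt3, the gene of kindlin-3, which binds integrin beta tails in blood cells, averaged 26.4 ± 3.54 CPM in DSS mice and 17.4 ± 1.65 CPM in Control mice (SD, n = 6 each; log2 fold change 0.60 ± 0.10 SE, edgeR adjusted p = 0.00247). Rassf5, a Rap1 effector of lymphocytes, rose 1.45-fold, the adaptor gene Skap2 1.39-fold, and Cytip, whose product binds the integrin regulator cytohesin, 1.71-fold. Fyb, the adaptor ADAP, was the fifth. The genes of broadly expressed parts of the machinery, Tln1 (talin), Rap1a and Rap1b, had log2 fold changes of 0.11, 0.03 and 0.10 and were not called.

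Of 16 genes that act downstream of bound integrins and their partner receptors 15 rose, with a median log2 fold change of 0.61. Many of these are general to myeloid cells and serve other receptors as well. Fgr, a Src-family kinase gene whose product carries beta 2 signals in neutrophils, rose 2.80-fold. It averaged 10.49 ± 2.49 CPM in DSS mice and 3.78 ± 1.20 CPM in Control mice (edgeR adjusted p = 0.00122). Pik3cd, a leukocyte phosphoinositide 3-kinase gene, rose 1.64-fold and Vav1, an exchange factor gene, 1.55-fold. Ptk2b was the single gene not called (log2 fold change 0.22 ± 0.14 SE, edgeR adjusted p = 0.422). With single mice left out, 11 to 15 of the 16 rose.

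On the side of the vessel wall and matrix, 14 of 19 listed counter-receptor genes were tested, and 2 rose. Vcam1, the endothelial ligand of alpha 4 beta 1, averaged 69.6 ± 15.4 CPM in DSS mice and 49.5 ± 5.75 CPM in Control mice (SD, n = 6 each; log2 fold change 0.49 ± 0.13 SE, edgeR adjusted p = 0.0413). This call held in 3 of the 12 settings with 1 mouse left out, those without DSS replicate 2, DSS replicate 3 or Control replicate 4, and was lost in the other 9. Over all 19 alternative settings Vcam1 was called in 10. C3, whose cleaved product is the ligand of complement receptors 3 and 4, rose 2.54-fold (edgeR adjusted p = 0.0114). Icam1 and Icam2, ligands of LFA-1, had log2 fold changes of 0.31 and 0.33 (edgeR adjusted p = 0.216 and 0.171). Madcam1, the gut vessel ligand of alpha 4 beta 7, had 0 to 3 counts in DSS libraries and 0 to 3 counts in Control libraries.

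**Figure D4:**
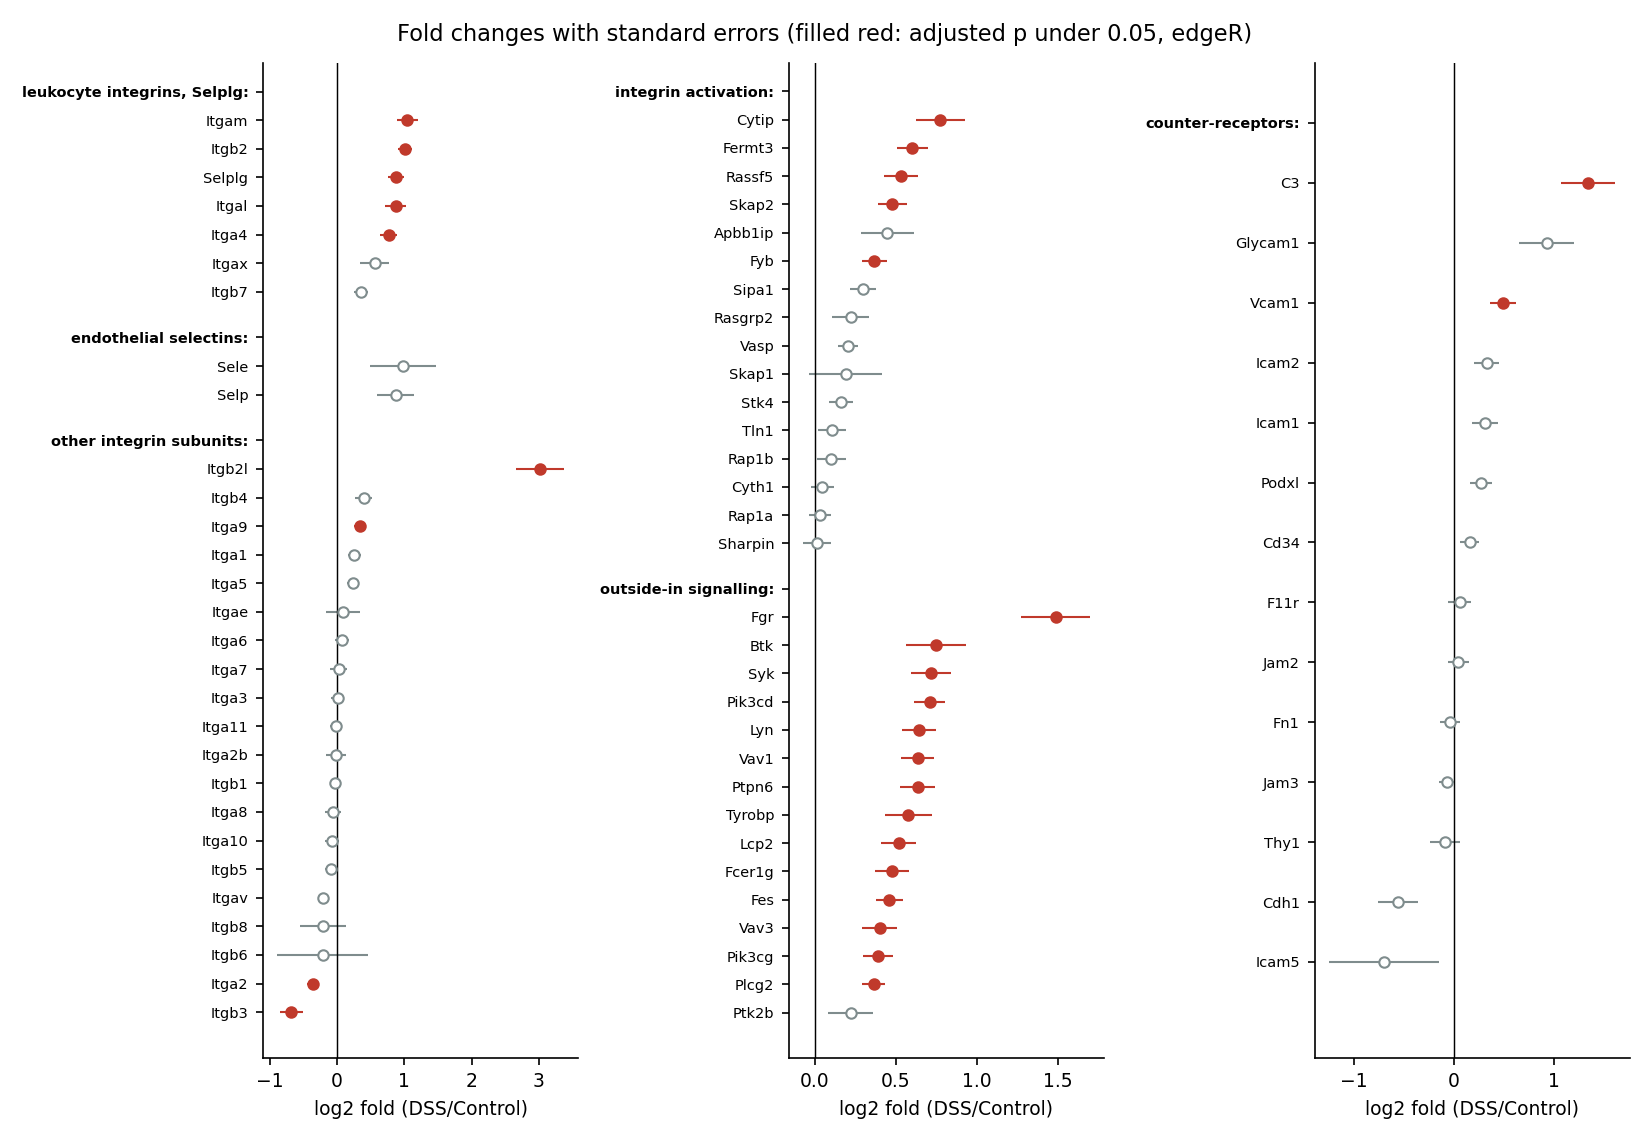
Log2 fold change of DSS over Control with its standard error (edgeR, 6 mice per group) for the reported integrin and endothelial selectin genes, for genes of integrin activation and downstream signalling, and for counter-receptor genes. Filled red points passed an adjusted p of 0.05: most downstream signalling genes lie right of 0, whereas the broadly expressed integrin chains lie around 0.

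Markers of several leukocyte types were also higher in DSS mice. The 12 neutrophil markers, with S100a9, S100a8 and Ltf the highest, all rose (S100a8, S100a9, Ly6g, Csf3r, Cxcr2, Mmp8, Ltf, Camp, Ngp, Retnlg, Lcn2 and Cd177) and summed to 263 to 1408 CPM in DSS mice and 69.1 to 202 CPM in Control mice. The 6 granulocyte precursor markers (Mpo, Elane, Prtn3, Ctsg, Ms4a3 and Fcnb) all rose and summed to 13.7 to 98.2 CPM in DSS mice and 2.91 to 9.64 CPM in Control mice. Of 8 classical monocyte markers 7 rose, with sums of 138 to 299 CPM in DSS mice and 91.3 to 107 CPM in Control mice. The part of these cells in the changes of the integrin genes was not tested.

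Summed markers of the remaining leukocyte types overlapped between the groups. Of 12 meningeal macrophage markers 1 rose (Adgre1), with sums of 983 to 1890 CPM in DSS mice and 1011 to 1214 CPM in Control mice. The macrophage sum lay above every Control mouse in 5 of 6 DSS mice and below every Control mouse in 1, DSS replicate 2. Of the 12 markers 6 had an unadjusted edgeR p under 0.05, at a median log2 fold change of 0.31. Over all 18593 tested genes, 3525 had an unadjusted edgeR p under 0.05. The count of risen macrophage markers was 5 without DSS replicate 2 and 2 without Control replicate 6. It was 0 when DSS replicate 4 or 6, or Control replicate 3, 4 or 5, was left out. Of 10 dendritic cell markers 2 rose (Batf3 and Wdfy4), with sums of 109 to 164 CPM in DSS mice and 94.3 to 129 CPM in Control mice. That count was 0 without DSS replicate 4 or 6 or Control replicate 5, and 1 without DSS replicate 1, 3 or 5 or Control replicate 1, 3 or 6. None of 10 T cell, 9 NK and innate lymphoid or 8 tested B cell markers was called by edgeR, with 1, 1 and 2 of them at an unadjusted p under 0.05. DESeq2 and limma-voom each called 1 T cell marker higher, and limma-voom 2 B cell markers lower. With single mice left out, edgeR called 0 to 1 T cell markers higher and 0 to 1 B cell markers lower. T cell markers summed to 18.8 to 28.6 CPM in DSS mice and 14.9 to 24.0 CPM in Control mice, NK and innate lymphoid markers to 16.2 to 26.8 CPM in DSS mice and 18.0 to 25.4 CPM in Control mice, and B cell markers to 47.6 to 72.3 CPM in DSS mice and 59.5 to 76.7 CPM in Control mice. Mast cell markers, 2 of 8 risen (Fcer1a and Hdc), summed to 161 to 351 CPM in DSS mice and 147 to 205 CPM in Control mice, and eosinophil and basophil markers, 2 of 4 tested risen (Prg2 and Epx), to 7.42 to 22.8 CPM in DSS mice and 3.28 to 7.97 CPM in Control mice. The mast cell count was 5 without DSS replicate 2 and 1 without Control replicate 5. Of 10 pan-leukocyte genes 7 rose, with sums that did not overlap, at 508 to 692 CPM in DSS mice and 346 to 416 CPM in Control mice.

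**Figure D5:**
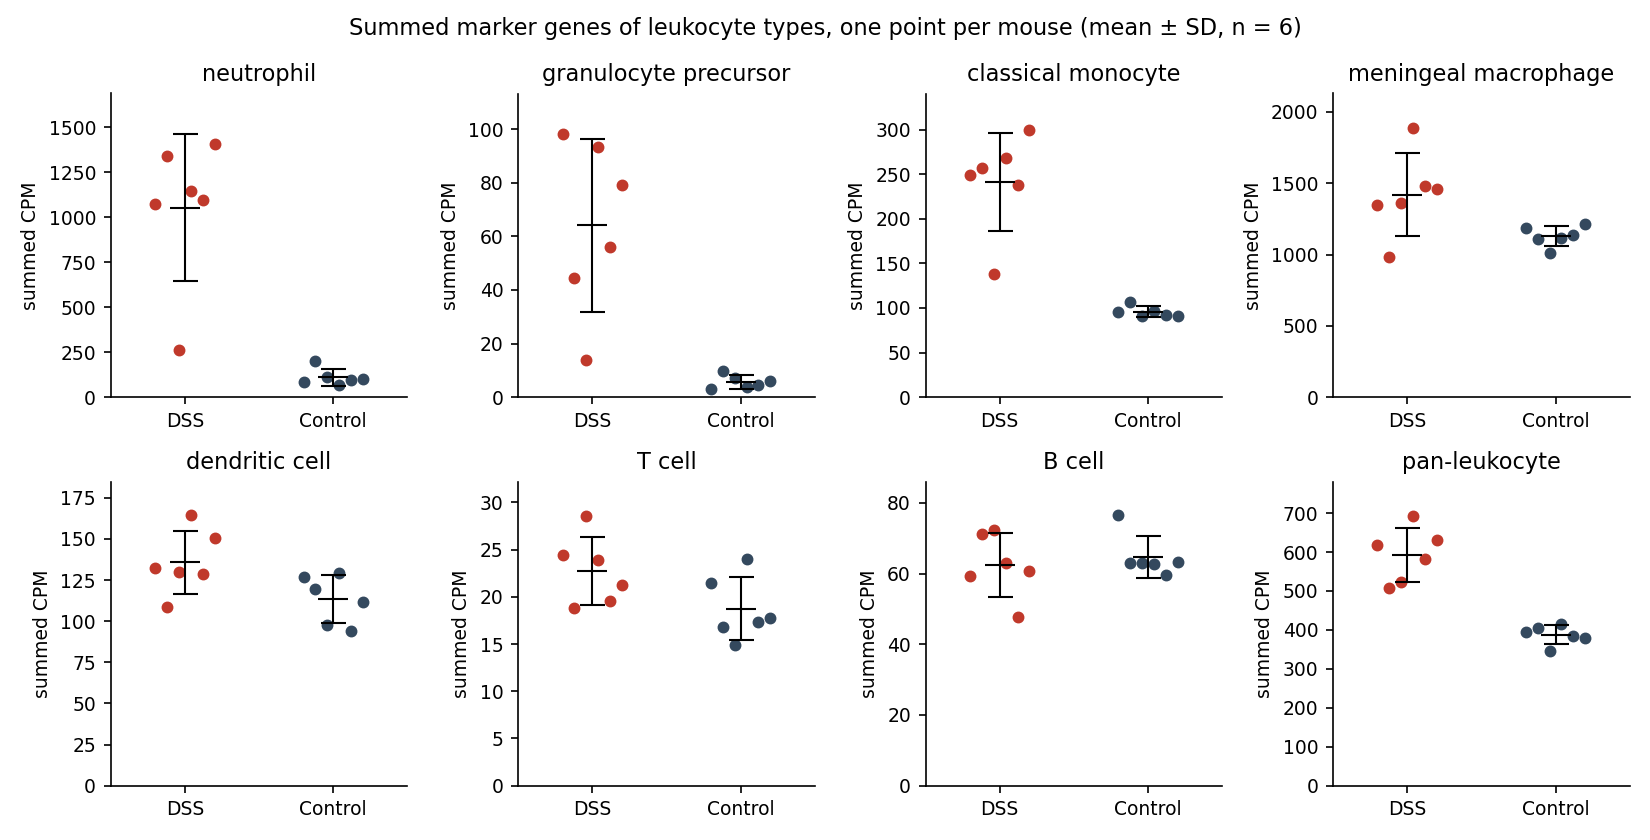
Summed CPM of marker genes of 7 leukocyte types and of 10 pan-leukocyte genes in each mouse (points), with mean and SD of 6. DSS mice lie above all Control mice for neutrophil, granulocyte precursor, classical monocyte and pan-leukocyte sums, with DSS replicate 3 lowest in the first 3 of these panels, and overlap them for macrophage, dendritic, T and B cell sums.

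Deviations of log2 CPM from the group mean were set against each other over the 12 mice, as a description without a test, since all values of a mouse share its library and scaling. Itgb2 and Itgam deviated together (Pearson r = 0.80), a value that was 0.58 without DSS replicate 3. Itgax deviated with Itgb7 (r = 0.80), with Itgal (r = 0.76) and little with Itgam (r = -0.04, and 0.37 without DSS replicate 3). Several of these values rested on DSS replicate 3: without it r was 0.84 in place of 0.39 for Itgb2 and Itgax, 0.75 in place of 0.35 for Itgb2 and Itgb7, and 0.60 in place of 0.11 for Itgam and Itgb7. Itga4 and Itgb7 deviated together as well (r = 0.75).

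Among 13067 genes, those whose deviations were most like a member's differed from member to member. For Itgam they were Emilin2 (r = 0.95), Lox (0.93) and Bst1 (0.92), for Itgb2 Slc7a8 (0.93), Cd300lf (0.93) and Sel1l (0.91), and for Itgal Ccdc88c (0.92), Cdc42bpb (0.88) and Pcgf5 (0.88). For Itgax they were Foxo3 (0.87), Traf3ip1 (0.84) and Adar (0.84), for Itga4 Dennd5a (0.94), Dennd2d (0.94) and Pecam1 (0.92), and for Selplg Alg8 (0.91), Nup62 (0.91) and Oas1a (0.89). For Itgb7 they were Ciita (0.93), Lrrk1 (0.92) and Ass1 (0.89). Each is the highest of many r over 12 mice and is given as a description. Ciita, the transactivator of MHC class II genes, was the only one of the 3 like Itgb7 that passed the test between groups, with a log2 fold change of 0.76 (edgeR adjusted p = 0.00891).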

How the data were processed

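RNA from the meninges of 12 mice was sequenced after a strand-specific total RNA preparation (labels' protocols). The submitters' processing notes name CASAVA, FastQC, Trim Galore, HISAT2, featureCounts and mm10. Versions, annotation, strand setting and the handling of multi-mapping reads: not given in the sources used here. From the authors' deposit, the table of raw counts per symbol was used, and a column went to the sample whose description is its header. A second deposited table, normalized by the authors, was not used.

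Genes were tested with edgeR 4.0.16 in R 4.3.3: filterByExpr (minimum count 10, minimum total 15), TMM scaling, then quasi-likelihood F-tests of group alone, with p-values Benjamini-Hochberg adjusted over all genes at 0.05. A standard error is |log2 fold change| divided by √F. CPM were computed with TMM-scaled library sizes, with a prior of 2 counts before taking log2. Ratio tests were exact permutations, and their 95% intervals hold the shifts that test retains at 0.05. Lengths and coordinates are from GENCODE M21 on GRCm38, the assembly mm10 denotes. DSS against Control was simulated in 3 sets of 18593 genes: 71.7% of genes changed 2-fold and 97.7% of those changed 4-fold were called. Each numbered sample was taken as 1 mouse, which the labels do not state outright, so p-values measure the spread between these samples. Libraries of a group differed by more than sampling noise (lowest chi-square per degree of freedom 18.3 over 30 pairs).

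The members, gene lists and ratios were chosen with earlier results of these data known. Named genes were the 7 members and Ptprc, up to 4 called genes of each pathway list with the smallest p, the 3 highest and all called markers of the lists described, and the 3 genes most like each member at an average log2 CPM of 1 or more; others are named to give levels of the same list, and some list members are not reported here. Marker lists of plasma cells, megakaryocytes, endothelium and choroid plexus had 0, 0, 1 and 0 members called. Alternatives were DESeq2 1.42.0 size factors and Wald test, limma-voom (limma 3.58.1) with quality weights, other filters, the replicate number as a block, and single mice left out.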

Additional observations from a re-analysis of the deposited data

Results flagged for a closer look

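In groups of 6, a mouse was marked where its gap to the nearest of the others divided by the group's range exceeded Dixon's 95% critical value, which chance gives in about 1 in 20 groups; 48 groups of values were examined and 5 were marked. DSS replicate 3 accounts for 3 of them, which share genes. Its log2 ratio of Itgax over Itgb2 was -1.49, against -2.52 to -2.31 in the other DSS mice. Its Itgb7 over Itgb2 was -1.20, against -1.97 to -1.69, and its Itgam over Itgax 1.18, against 2.23 to 2.70. DSS replicate 5 was low for Itga4 over Itgb1, at -3.78 against -3.34 to -3.15 in the other DSS mice. Control replicate 2, the library with the highest ribosomal share, was low for Itgal over Ptprc, at -3.71 against -3.00 to -2.85 in the other Control mice, with 42 Itgal counts. No value of a single member was marked in either group.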

How the results depend on the processing

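Of 133 combinations of the 7 members with 19 alternatives, 128 kept the member's direction and its side of the threshold, and the other 5 were calls gained by Itgax or Itgb7; 5 to 6 members were called with single mice left out. Of all tested genes 919 were called (684 higher, 235 lower in DSS mice), 538 to 1379 with single mice left out (443 to 989 higher, 95 to 390 lower), and 1551 by DESeq2 (1036 higher, 515 lower). Limma-voom called 479 lower and the table without a filter 156 lower. Of 88 tested pathway genes 33 were called, and 25 to 40 with single mice left out, against 4.94% of all tested genes in the main fit. These counts include the pan-leukocyte list, of which 7 of 10 rose. Of the 17 ratios 4 were called, and 3 to 6 with single mice left out. With the replicate number as a block, 547 genes were higher and 161 lower. The ratios were then tested by an exact sign-flip test, which called 0 (4 without the block). Its smallest p is 0.0312, which passes adjustment over 17 ratios only if many of them reach it together. The lack of calls in this setting therefore decides nothing about the 4 ratios. Same-numbered mice did not deviate together (r of -0.19 to 0.15), so the numbers are not taken to pair the mice. Ratios without a call changed sign in places: Itgam over Itgb2 lay between -0.0583 and 0.0673 with single mice left out and was 0.0601 without Control replicate 2 and DSS replicate 2, Itgal over Ptprc lay between -0.0681 and 0.141 and was -0.12 without those 2, Itgam over Itgal lay between -0.00368 and 0.24, and Selplg over Ptprc between -0.0199 and 0.10. The causes were not tested. Itgad and Madcam1 had too few counts to be tested.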
